A study of Caenorhabditis elegans with 6 samples.

Results

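The maternal polarity genes of *C. elegans* considered here, in RNA-seq of dissected adult germlines, are par-3 (F54E7.3), par-6 (T26E3.3), pkc-3 (F09E5.1), cdc-42 (R07G3.1), par-1 (H39E23.1), par-2 (F58B6.3), lgl-1 (F56F10.4) and par-5 (M117.2). They were chosen by sequence name, without use of their values, and all 8 were found among the 45461 genes of the count tables. The study compared 3 groups of 2 libraries, each made from distal gonad arms of hermaphrodites, pooled and cut at the bend where germ cells are in late pachytene, in day 1 adults grown at 24 °C. Growing oocytes, which lie beyond the bend, are thus largely outside the sample. Control germlines came from HBR1280 hermaphrodites, which carry the transgene oxTi75 (GFP::H2B under the eft-3 promoter with the tbb-2 3′ UTR, together with unc-18(+)) and inherited chromosomes of both parents. “Red-head” germlines came from the F1 of HBR1281 hermaphrodites crossed with HBR1280 males. HBR1281 carries oxTi411 on chromosome III (TdTomato::H2B under the eft-3 promoter with the unc-54 3′ UTR, and Cbr-unc-119(+)) and ddIs32, a synthetic yfp::gpr-1 with artificial introns. Excess GPR-1 in the zygote separates the parental pronuclei, so that the germline of a “red-head” worm holds sperm chromosomes only, while other cells of the same animal hold oocyte chromosomes. The third group, called offspring here, came from the progeny of “red-head” hermaphrodites. By the study's methods the germlines of all 3 groups have the HBR1280 genotype, with oxTi75 and without the transgenes of HBR1281.

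The PAR network breaks the symmetry of the *C. elegans* zygote. PAR-3, PAR-6, the atypical protein kinase PKC-3 and the small GTPase CDC-42 occupy the anterior cortex, the kinase PAR-1, the RING-finger protein PAR-2 and LGL-1 occupy the posterior cortex, and each side removes the other by phosphorylation or by displacing it. The oocyte supplies the RNAs and proteins of the network, which is why an adult gonad holds transcripts whose best known task comes after fertilization. Several of the proteins also act outside the embryo, in epithelial polarity and in the organization of the gonad.

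Counts on genes ranged from 2721055 in “red-head” replicate 2 to 11310273 in “red-head” replicate 1. The study's methods call replicates biological, but no label ties them to separate worm cultures, so p-values measure only the spread between these libraries. The germline list (8 genes, among them gld-1 and rme-2) summed to between 5483 and 6690 CPM (counts relative to library size as edgeR's cpm function gives them, with library totals scaled by its TMM method) in the 6 libraries, the lowest being “red-head” replicate 1. In that library glh-1 had 192.9 CPM compared with 368.8 to 421.8 in the other 5, and pgl-1 439.9 compared with 630.9 to 730.2. Likewise gld-1 had 1002 compared with 1335 to 1658, and htp-3 181.4 compared with 203.1 to 230.0. The gene sygl-1 was higher there, at 215.5 compared with 124.3 to 165.7. The remaining genes of the list, glp-1 (530.8), rme-2 (2087) and mex-5 (833.7), lay inside the range of the other 5 libraries. Genes of the intestine (12 listed, 9 tested) summed to 511.7 and 355.6 CPM in controls, to 3234 and 6201 in “red-head” and to 1347 and 207.3 in offspring libraries, and the intestinal regulator elt-2 had no count in either control library. Of the 9 tested intestine genes, 8 had an unadjusted p under 0.05 in “red-head” germlines against control (edgeR's quasi-likelihood test), compared with 7.65% of all tested genes. After adjustment 0 were called, as were 0% of all tested genes. The most abundant of the intestine genes were vit-6 and vit-2, which encode yolk proteins made in the intestine. Across all libraries the muscle list summed to between 38.5 and 173.2 CPM, the hypodermis list to between 120.4 and 154.5, the neuron list to between 71.7 and 90.4, the list of gonadal sheath and spermatheca to between 2.87 and 8.34, and the spermatogenesis list to between 1.58 and 13.8. Most of the hypodermis sum came from lin-26 (100.3 to 113.5 CPM) and most of the neuron sum from snb-1 (61.5 to 79.0). These sums therefore say little about the other genes of their lists. The part of the listed tissues in the values of the polarity genes was not tested. In RNA from pooled distal gonad arms, fewer cells of a type and less RNA per cell cannot be told apart.

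All 8 polarity genes passed the filter on low counts and were among the 8117 genes tested. To compare genes with each other, CPM were divided by the length of all annotated exons in kilobases. By this measure the most abundant was par-5, which encodes a 14-3-3 protein that keeps the anterior and posterior domains apart. It had 732.6 ± 2.31 CPM per kb in control germlines (SD, n = 2), above 98.1% of the tested genes and 62.5% of the sum over the 8. Next came cdc-42 with 152.6 ± 1.56 CPM per kb and par-3, the scaffold of the anterior complex, with 96.8 ± 7.80 (SD, n = 2). These 3 genes had the same order in all 6 libraries, and each stood above the remaining 5 in each library.

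**Figure D1:**
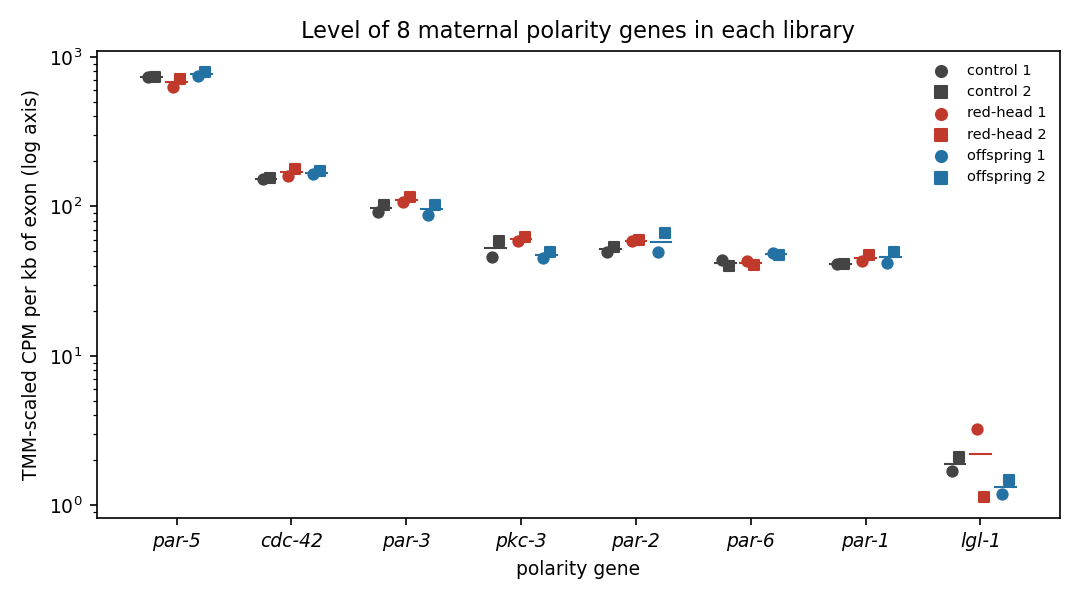
Level of each polarity gene in each library, as TMM-scaled CPM per kb of exon on a log axis. Circles are replicate 1, squares replicate 2, and short lines the group means (n = 2). The genes par-5, cdc-42 and par-3 lead in all 6 libraries, 4 genes share a band between 40.1 and 66.6, and lgl-1 lies between 1.14 and 3.24.

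Below them 4 genes lay close together. In control the kinase gene pkc-3 had 52.4 ± 8.80, par-2 had 51.7 ± 3.01, par-6, whose protein couples PKC-3 to CDC-42, had 41.9 ± 2.51, and par-1 had 41.4 ± 0.044 CPM per kb (SD, n = 2). Their values over the 6 libraries ran from 40.1 to 66.6 CPM per kb, while the lowest library of par-3 had 88.2. The order within this band changed between libraries, and control replicates alone put pkc-3 and par-2, and par-6 and par-1, in opposite orders, so these neighbours did not differ beyond their spread. It also rests on the length used: par-1 and par-2 have exons that no single transcript holds together, and with the longest transcript par-2 had 67.0 and par-1 53.8 CPM per kb.

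Last came lgl-1, which encodes the worm homolog of the fly tumour suppressor Lgl and acts on the posterior side, where it can substitute in part for PAR-2. It had 1.90 ± 0.30 CPM per kb in control (SD, n = 2), above only 12.7% of the tested genes. Within single libraries par-2 exceeded lgl-1 between 18.03 and 52.2 times per unit of length. No count table separates isoforms, so these levels cover all transcripts of a gene. Exons of other genes on the opposite strand overlap 3.44% of the exon length of par-3 and at most 1.42% of that of the others, and without strand such reads cannot be assigned to a side.

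The question put to the comparison of “red-head” with control germlines was whether genes whose products the oocyte loads are expressed at the usual level when the germline inherited no oocyte chromosomes. None of the 8 polarity genes was called in “red-head” germlines (edgeR's quasi-likelihood test, adjusted p of 0.05 by Benjamini-Hochberg over all tested genes, where 0% of the 8117 genes were called). The number with an unadjusted p under 0.05 was also 0, compared with 7.65% of all tested genes, and DESeq2 called 0, compared with 0.968% of the genes it tested. Log2 fold changes ranged from -0.12 for par-5 to 0.27 for lgl-1. The median over the 8 was 0.16, beside -0.0083 over all tested genes, and the median size regardless of sign was 0.16, beside 0.17.

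For 7 of the 8 genes the 95% interval of the difference lay within 2-fold in either direction, as it did for 59.3% of the tested genes. Only the interval of lgl-1 was wider.

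On the anterior side, par-3 stood at 488.5 and 547.6 CPM in controls, at 569.6 and 620.0 in “red-head” and at 472.2 and 550.2 in offspring germlines. Both “red-head” libraries lay above both controls and above both offspring libraries, which themselves overlapped. The log2 fold change of “red-head” over control was 0.20 (standard error 0.13, 95% interval -0.09 to 0.49, adjusted p = 0.789 by edgeR's quasi-likelihood test), and 0.11 without control replicate 1. Its partner pkc-3 showed the same arrangement, at 107.7 and 136.7 CPM in controls, at 137.2 and 146.0 in “red-head” and at 105.3 and 115.6 in offspring germlines. The gap to control was narrow, as control replicate 2 nearly reached the lower “red-head” library. Its log2 fold change was 0.21 (standard error 0.13, interval -0.10 to 0.52, adjusted p = 0.786, same test), and this fell to 0.04 without control replicate 1 and rose to 0.40 without control replicate 2.

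The third member of the anterior complex differed from these. The gene par-6, which the study counts among genes enriched in oogenesis, stood at 61.7 and 56.7 CPM in controls and at 60.9 and 57.2 in “red-head” germlines, so the “red-head” values fell inside the control range. The fitted log2 difference was -0.00098 with an interval from -0.29 to 0.29. In offspring germlines par-6 had 69.4 and 67.0 CPM, above both other groups. For the GTPase gene cdc-42 the values were 203.9 and 206.9 CPM in controls, then 213.9 and 239.6 in “red-head” and 220.3 and 231.4 in offspring germlines. Its control values were the lowest of the 6, with a log2 fold change of 0.14 in each comparison with control and intervals of -0.09 to 0.37. In “red-head” germlines this was 0.064 without “red-head” replicate 2 and 0.23 without “red-head” replicate 1.

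**Figure D2:**
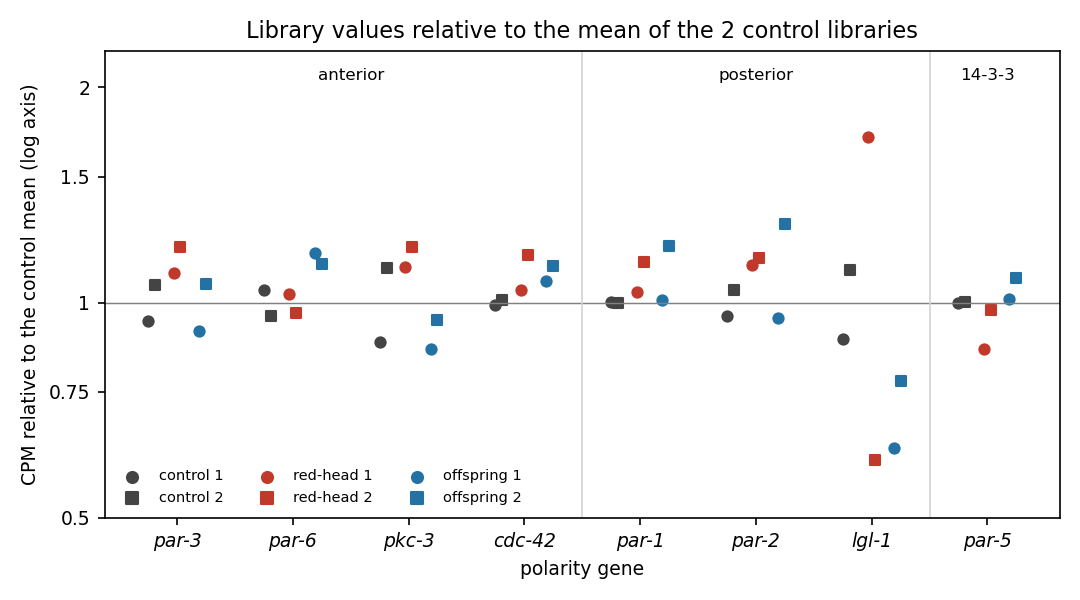
CPM of each polarity gene in each library divided by the mean of the 2 control libraries, on a log axis, grouped into anterior genes, posterior genes and the 14-3-3 gene par-5. Circles are replicate 1 and squares replicate 2. All genes but lgl-1 stay within a narrow band, and the 2 “red-head” libraries of lgl-1 are its highest and lowest.

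On the posterior side, par-1, whose kinase phosphorylates PAR-3 and the MEX-5 determinant, stood at 277.3 and 276.9 CPM in controls, at 286.5 and 316.1 in “red-head” and at 279.1 and 332.0 in offspring germlines. The control values were the lowest here too, but offspring replicate 1 barely exceeded them. The log2 fold change was 0.12 (interval -0.16 to 0.39) in “red-head” and 0.14 (-0.13 to 0.41) in offspring germlines. Without replicate 1 and without replicate 2 of the group itself these were 0.20 and 0.053 in “red-head” and 0.26 and 0.011 in offspring germlines. For par-2, which recruits PAR-1 and shields it from PKC-3, control libraries gave 130.9 and 142.2 CPM, “red-head” libraries 154.2 and 157.5, and offspring libraries 129.9 and 175.7. The “red-head” libraries were above both controls, and the offspring libraries were the lowest and the highest of the 6. Its log2 fold change was 0.19 (interval -0.15 to 0.53) in “red-head” and 0.16 (-0.19 to 0.50) in offspring germlines, and the latter was -0.07 without offspring replicate 2 and 0.37 without offspring replicate 1. The 14-3-3 gene par-5 stood at 920.2 and 924.3 CPM in controls, at 795.2 and 901.9 in “red-head” and at 932.3 and 997.6 in offspring germlines. It was the only polarity gene with both “red-head” libraries below both controls, by a log2 fold change of -0.12 (interval -0.40 to 0.16). This was -0.02 without “red-head” replicate 1 and -0.21 without “red-head” replicate 2. Some germline genes of “red-head” replicate 1 also lay outside the range of the other libraries, and a link with par-5 was not tested.

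In all, 5 of the 8 genes (par-3, pkc-3, cdc-42, par-1 and par-2) had both “red-head” libraries above both controls and 1 (par-5) had both below. Over all tested genes the groups did not overlap for 38%, 18.4% higher and 19.6% lower. These members and their directions were unchanged with RLE scaling and with library size alone. The summed intestine list was also above both controls in the same 2 libraries, and its part in these values was not tested.

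The RNA levels of the anterior and posterior genes were compared within each library. The 4 anterior genes together had 3.59 and 3.64 times the CPM per kb of the 3 posterior genes in controls, 3.52 and 3.67 times in “red-head” and 3.76 and 3.16 times in offspring libraries. The “red-head” values enclosed those of control, and the offspring libraries were the highest and the lowest. Most of the anterior sum came from cdc-42 and par-3 (152.6 and 96.8 CPM per kb in control). The ratio also rests on the length used. With the longest transcript par-2 had 67.0 and par-1 53.8 CPM per kb in control, in place of 51.7 and 41.4. Within the anterior complex, par-6 had 0.95 and 0.68 times the level of pkc-3 per unit of length in control, 0.73 and 0.65 times in “red-head” and 1.09 and 0.96 times in offspring libraries. Here the “red-head” and offspring libraries did not overlap, and the control libraries lay apart, 1 among the “red-head” values and 1 just below the offspring values.

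The germlines of the next generation, which came from “red-head” mothers, were compared with control in the same way. None of the 8 genes was called (same test, with 0.123% of the tested genes called), 0 had an unadjusted p under 0.05 (1.29% of the tested genes) and DESeq2 called 0 (0.194% of the genes it tested). Log2 fold changes against control ranged from -0.52 for lgl-1 to 0.20 for par-6, and 7 of the 8 intervals again lay within 2-fold, as for 61% of the tested genes. The groups did not overlap for 5 of the 8 genes, with par-6, cdc-42, par-1 and par-5 higher and lgl-1 lower, compared with 33% of the tested genes, 16.4% higher and 16.6% lower. With library size alone as the scaling, par-1 and par-5 overlapped with control and 3 genes remained. Both comparisons with control share the control libraries. For par-6, the largest fitted rise, the log2 fold change was 0.20 (standard error 0.12, interval -0.08 to 0.49, adjusted p = 0.999 by edgeR's quasi-likelihood test). Offspring replicate 1 and control replicate 1 share a tag in their file names that no label explains. Between those libraries alone, the log2 difference was 0.17 for par-6, 0.11 for cdc-42 and -0.46 for lgl-1, and within 0.05 of 0 for the other 5 genes.

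**Figure D3:**
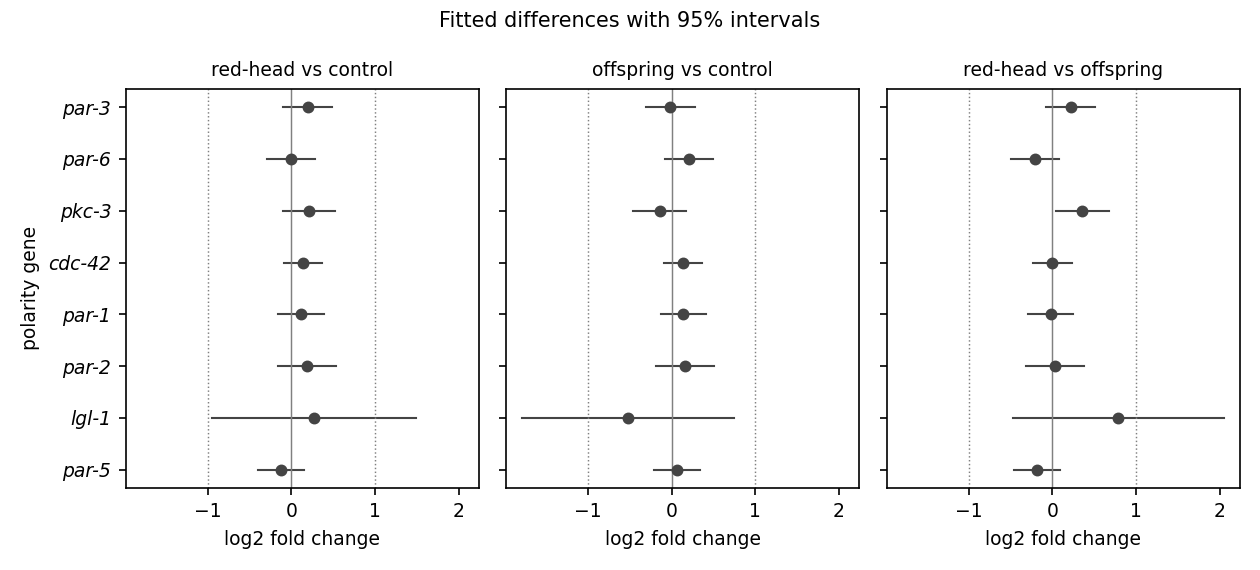
Fitted log2 fold change of each polarity gene (points) with its 95% interval (lines) in the 3 comparisons, from edgeR's fit of all 6 libraries. Dotted lines mark a 2-fold change. The intervals of 7 genes stay inside these lines in every panel, that of lgl-1 crosses 1 of them in each panel, and only that of pkc-3 in “red-head” against offspring leaves out 0.

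The 2 generations were also compared directly. None of the 8 genes was called (0.0123% of the tested genes were, same test), and DESeq2 called 0, compared with 1.54% of the genes it tested. The interval lay within 2-fold for 7 of the 8, as for 58% of the tested genes. The gene pkc-3 alone had an unadjusted p under 0.05, compared with 10.2% of the tested genes. It was 1.28-fold higher in “red-head” than in offspring germlines, a log2 difference of 0.36 (standard error 0.13, interval 0.04 to 0.67, adjusted p = 0.431 by edgeR's quasi-likelihood test), with each “red-head” library above each offspring library. The adjusted p ranged from 0.269 to 0.733 over the alternatives that gave a test, and the log2 difference from 0.29 to 0.42 when each library was left out in turn. The groups did not overlap for 4 genes: par-3 and pkc-3 were higher in “red-head” germlines, and par-6 and par-5 lower, compared with 37.9% of the tested genes, 17.5% higher and 20.4% lower. With library size alone, cdc-42 was also higher and par-6 overlapped. Without offspring replicate 1 the log2 difference of par-3 moved from 0.22 to 0.11, and without “red-head” replicate 1 that of par-5 moved from -0.19 to -0.082. The log2 difference of par-6 was -0.20 (interval -0.49 to 0.08, adjusted p = 0.611, same test). A tag is also common to the second “red-head” and the second offspring library. Between these the log2 differences were 0.34 for pkc-3, 0.17 for par-3, -0.23 for par-6 and -0.15 for par-5. The directions of these 4 were fixed beforehand, because their groups did not overlap. Of the other genes, cdc-42 (0.05) and par-1 (-0.07) kept the sign of the whole comparison. The sign was reversed for par-2 (-0.16, in place of 0.03) and lgl-1 (-0.33, in place of 0.79).

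The exception in spread was lgl-1. It was counted 49 and 42 times in controls, 152 and 12 times in “red-head” and 32 and 20 times in offspring libraries. Scaled to depth, it stood at 6.59 and 8.24 CPM in controls, at 12.6 and 4.46 in “red-head” and at 4.63 and 5.75 in offspring germlines. The “red-head” libraries were thus the highest and the lowest of the 6, and their exact Poisson intervals, which cover counting error only, ran from 10.7 to 14.8 and from 2.30 to 7.79 CPM and did not overlap. The log2 fold change in “red-head” germlines was 0.27 (standard error 0.52, interval -0.95 to 1.49). It became -0.72 without “red-head” replicate 1 and 0.78 without “red-head” replicate 2, so its direction rested on a single library. In offspring germlines it was -0.52 (interval -1.79 to 0.75). The highest library of lgl-1 had 2.83 times the CPM of its lowest, compared with ratios from 1.17 for cdc-42 to 1.39 for pkc-3 for the other 7 genes and a median of 1.53 over all tested genes.

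Of the 8, lgl-1 is the only gene on the X chromosome, which in the worm germline is largely silenced until late pachytene. The other 7 lie on autosomes (par-6 on I, pkc-3 and cdc-42 on II, par-2 and par-3 on III, par-5 on IV, par-1 on V). The median of the 792 tested X-linked genes differed from the control mean by 0.40 on the log2 scale in “red-head” replicate 1 and by -0.36 in “red-head” replicate 2, and lgl-1 by 0.74 and -0.67. In the offspring libraries the X-linked medians were -0.09 and -0.39, and lgl-1 had -0.62 and -0.33. Autosomal medians stayed between -0.019 and 0.012 in all 6 libraries. The sign for lgl-1 was that of the X-linked median in each library. The control values mirror each other by construction, because the differences are taken from their mean. In “red-head” replicates 1 and 2 lgl-1 lay above 82.7% and 30.8% of the X-linked genes. For offspring replicates 1 and 2 this was 9.34% and 55.4%. What the X-linked genes share with lgl-1 in these libraries was not tested.

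**Figure D4:**
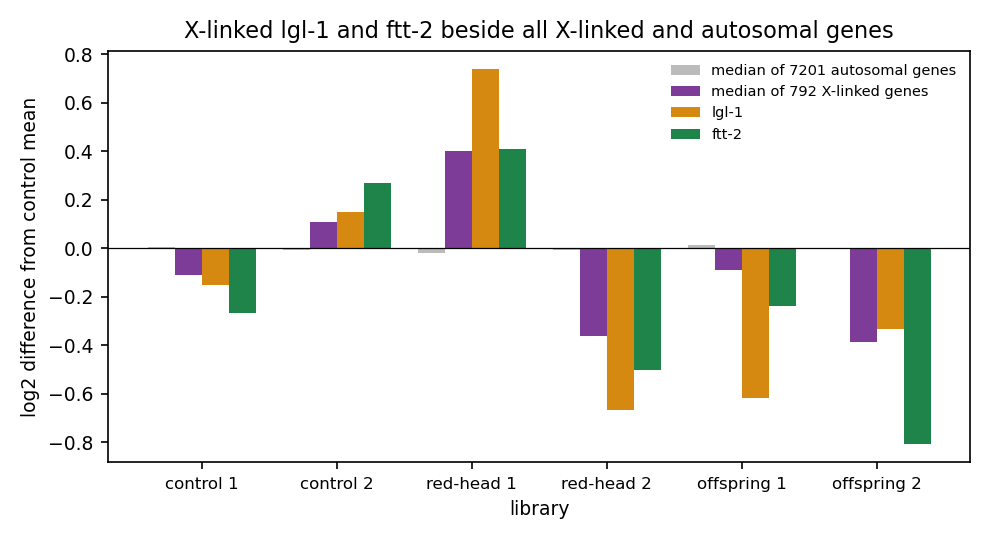
Log2 difference of each library from the mean of the 2 control libraries, for the median of autosomal genes, the median of X-linked genes, lgl-1 and ftt-2. Both X-linked genes have the sign of the X-linked median in every library, and autosomal medians stay near 0. The bars of the control libraries mirror each other by construction.

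The second 14-3-3 gene of the worm, ftt-2 (F52D10.3), is also X-linked and is a close paralog of par-5. It stood at 49.5 and 72.0 CPM in controls, at 79.5 and 41.98 in “red-head” and at 50.5 and 33.9 in offspring germlines, so that par-5 exceeded it per unit of length between 10.29 and 30.2 times. How reads that match both genes were treated before counting is not given in the sources used here, and the values of both are uncertain to that extent. The log2 fold change of ftt-2 was 0.04 in “red-head” and -0.50 (interval -1.29 to 0.28) in offspring germlines, and neither was called.

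Beyond the core, 44 genes that act with the PAR proteins were listed by role: 10 kinases and adaptors, 16 GTPase regulators and actomyosin genes, 12 cytoplasmic determinants and 6 spindle positioning genes. All 44 were tested, and 0 were called in each of the 3 comparisons, by edgeR or by DESeq2. Over all tested genes edgeR called 0% in “red-head” against control, 0.123% in offspring against control and 0.0123% in “red-head” against offspring. In the same order DESeq2 called 0.968%, 0.194% and 1.54% of the genes it tested. In “red-head” germlines against control 2 of the 44 (4.55%) had an unadjusted p under 0.05, compared with 7.65% of all tested genes. In the other comparisons 0 had, compared with 1.29% in offspring against control and 10.2% in “red-head” against offspring. The median log2 fold changes were 0.05, 0.02 and 0.03 in “red-head” against control, offspring against control and “red-head” against offspring, beside -0.0083, 0.0031 and -0.0064 over all tested genes.

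The 2 genes with an unadjusted p under 0.05 were ani-1, which encodes the anillin of the contractile cortex, and goa-1. The latter encodes a G protein alpha subunit that acts in spindle positioning. The level of ani-1 was 605.0 and 607.4 CPM in controls, then 703.9 and 840.3 in “red-head” and 618.8 and 679.0 in offspring germlines. The “red-head” libraries differed from control by 0.35 on the log2 scale (standard error 0.13, adjusted p = 0.559 by edgeR's quasi-likelihood test). That of goa-1 was 151.5 and 155.1 CPM in controls, then 168.8 and 199.1 in “red-head” and 160.9 and 153.2 in offspring germlines, and the log2 difference of “red-head” from control was 0.26 (standard error 0.11, adjusted p = 0.647, same test). Both “red-head” libraries exceeded the other 4 for either gene. The GTPase regulators and actomyosin genes had a median of 0.16 in “red-head” germlines, with 12 of 16 fitted higher. The cytoplasmic determinants, among them mex-5, pie-1 and nos-2, had a median of 0.0099 with 6 of 12 fitted higher. Over all tested genes the median was -0.0083. In offspring germlines against the same controls, 12 of the 16 GTPase regulators and actomyosin genes were also fitted higher, with a median of 0.065. Of the cytoplasmic determinants 4 of 12 were, with a median of -0.050, beside 0.0031 over all tested genes.

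**Figure D5:**
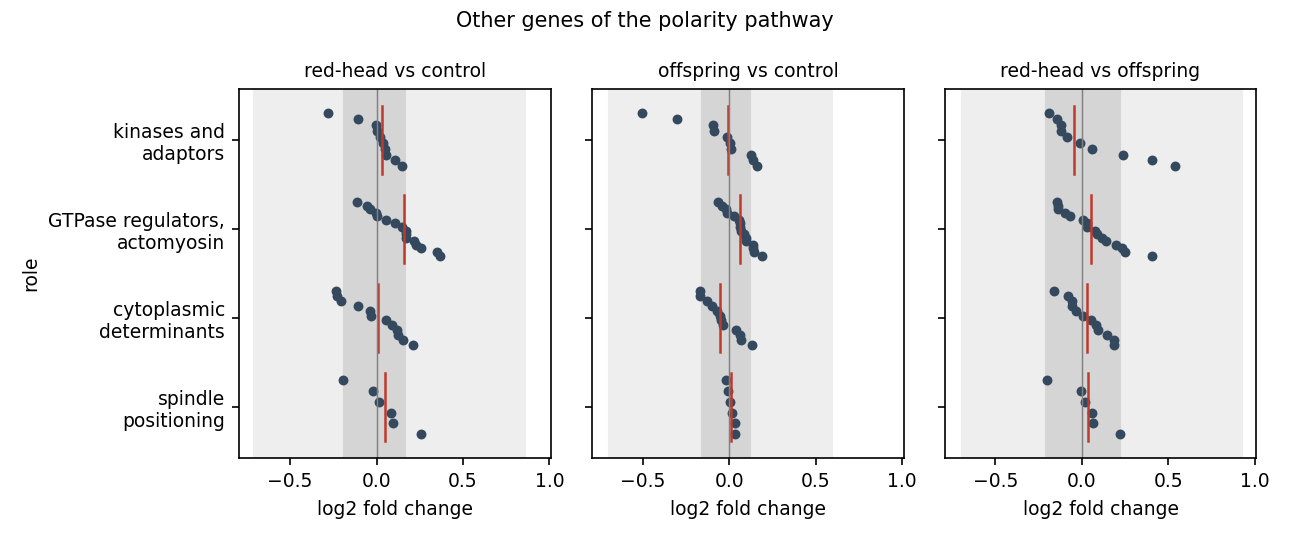
Log2 fold change of the 44 other polarity pathway genes (points) by role in the 3 comparisons, with the median of each role as a red line. Dark and light shading mark the middle 50% and 90% of all 8117 tested genes. Outside the light band lies no gene of the 44 in any panel.

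At the ends of this list, the log2 fold changes in “red-head” germlines ran from -0.28 for mop-25.2, which encodes an adaptor of the PAR-4 kinase, to 0.37 for the CDC-42 exchange factor gene cgef-1. The latter is X-linked, with 20.6 and 9.29 CPM in “red-head” germlines around control values of 10.35 and 13.5. In offspring germlines they ran from -0.50 for ftt-2 to 0.19 for rga-3, a RhoA GTPase-activating protein gene, and between the generations from -0.20 for gpr-1 to 0.54 for ftt-2. The gene gpr-1 stood at 67.6 and 71.4 CPM in controls, at 62.7 and 58.3 in “red-head” and at 62.0 and 77.9 in offspring germlines. It is nearly identical to gpr-2, and reads may have been divided between them.

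For each polarity gene the tested gene with the most similar profile was sought, by the root mean square difference of log2 CPM over the 6 libraries after each gene was centred on its mean. These were mes-6 for par-3 (0.016), adsl-1 for par-6 (0.025), Y38E10A.22 for pkc-3 (0.041), mdt-26 for cdc-42 (0.020), mrck-1 for par-1 (0.015), Y50D7A.1 for par-2 (0.027), dapk-1 for lgl-1 (0.071) and pyp-1 for par-5 (0.013). Among the 8 themselves, par-3 and pkc-3 were each other's nearest (0.084), as were cdc-42 and par-1 (0.053). For pkc-3, 0.54% of the tested genes were closer than par-3, and for lgl-1, 22.3% were closer than its nearest polarity gene. With 6 libraries and 8117 genes such likeness is a description only.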

How the data were processed

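RNA-seq of 6 germline libraries was analysed. Single-end reads of 50 bases were aligned by the authors with TopHat2 (transcriptome of WS220), and the deposited values are raw HTSeq counts for each gene. The strand setting and versions are not given in the sources used here. The kit named is not described as stranded. Rows that name no gene (10.7% to 15.2% of reads without a feature, 1.59% to 2.15% ambiguous) were left out. A deposited table of the authors' own DESeq2 comparisons (mean levels, fold changes, adjusted p-values) was not used.

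Of 45461 gene names, 44936 matched the Ensembl 115 annotation (WBcel235), which gave symbols, chromosomes, strands and exon lengths. Its exon coordinates gave the overlaps between genes, whereas the reads had been aligned to the transcriptome of WS220. Tests used edgeR 4.0.16 (R 4.3.3): filterByExpr, TMM, glmQLFit on all 6 libraries, because 2 per group estimate the spread poorly, and glmQLFTest, with Benjamini-Hochberg adjustment over 8117 genes and a threshold of 0.05. Standard errors came from the F statistic and intervals (95%) from its degrees of freedom. Alternatives were DESeq2 1.42.0, other scalings and filters, the 4 libraries compared, a replicate block, and each library left out; overlap under other scalings, values relative to the median of tested genes and the pathway list under all alternatives were added after seeing the data. Steps were tested on simulated data. All 8 genes are named, with ftt-2, the nearest profile of each, and, of the pathway list, the highest, the lowest and those with an unadjusted p under 0.05. The genes and lists were chosen with earlier results of these data known. The count of 50-base windows shared between par-5 and ftt-2, planned with the design, was not run, and no sequence was analysed here.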

Additional observations from a re-analysis of the deposited data

How the results depend on the processing

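No polarity gene and no gene of the pathway list was called under any alternative run. The number of all genes called moved more: without a filter on low counts it was 355 in “red-head” against control, 68 in offspring against control and 383 between the generations, in place of 0, 10 and 1, and with DESeq2 it was 89, 17 and 128. With library size alone the median of all tested genes was 0.020 in “red-head” against control, -0.076 in offspring against control and 0.10 between the generations, in place of -0.0083, 0.0031 and -0.0064. With that scaling, par-5 was at -0.015 in offspring against control, par-1 at 0.083 between the generations, and the polarity genes not overlapping between offspring and control numbered 3 in place of 5. Relative to the median of tested genes these were 0.060 for par-5 (0.062 as reported) and -0.018 for par-1 (-0.014). So measured, each of the 8 genes had the sign it had as reported with DESeq2, RLE scaling or library size alone, in all 3 comparisons. That was nearly fixed beforehand. Another scaling moves all genes of a comparison by nearly the same amount, which subtracting the median takes out. The kept signs are thus no test of the scaling.

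Some fitted changes near 0 took the other sign on the scale as fitted. For par-6 in “red-head” germlines the log2 fold change was 0.0088 with DESeq2, 0.012 with RLE scaling, 0.030 with library size alone, 0.0073 without a filter, 0.0030 with at least 10 counts in every library and 0.014 with the 4 libraries compared. Relative to the median of tested genes it was 0.0073 as reported, 0.0097 with DESeq2, 0.0067 with RLE scaling and 0.0095 with library size alone. For par-1 between the generations it was 0.012 with the 4 libraries compared. Between libraries that share a tag, par-2 had -0.011 in offspring against control, and par-2 and lgl-1 had -0.16 and -0.33 between the generations. With each library left out, the ranges that crossed 0 were -0.059 to 0.058 for par-6 and -0.72 to 0.78 for lgl-1 in “red-head” against control. Against control, offspring gave -0.13 to 0.089 for par-3, -0.31 to 0.029 for pkc-3 and -0.071 to 0.37 for par-2. Between the generations they were -0.074 to 0.10 for cdc-42, -0.15 to 0.10 for par-1, -0.18 to 0.25 for par-2 and -0.19 to 1.30 for lgl-1. In the order of levels per length in control, 4 of the 8 positions changed with the longest transcript, and 2 without either control replicate. A fold for a library left out assumes that the lone library of its group varies like the other groups.

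With the replicate number as a block, 0 polarity genes were called in each comparison, and the log2 fold change of pkc-3 between the generations was 0.36 (adjusted p = 0.269, edgeR). Deviations of same-numbered libraries correlated at -0.091 for control and “red-head”, 0.39 for control and offspring and 0.046 for “red-head” and offspring. The main fit took no replicate block. What same-numbered control and offspring libraries share was not tested. Depth limits lgl-1, with 12 to 152 counts, more than any other of the 8.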
